A study of Mus musculus with 12 samples.

Results

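The 9 genes described here handle platinum drugs or bind metals: the copper transporters Slc31a1 and Slc31a2, the copper-exporting ATPases Atp7a and Atp7b, the metallothioneins Mt1 and Mt2, the efflux pumps Abcc1 and Abcc2, and the cation exporter Slc47a1. They were chosen by name for their known link to platinum uptake and resistance, with earlier results of these data known. All 9 were found among the 55216 genes of the count table. Their mRNA was counted by RNA-seq in Myc-CaP, a Myc-driven prostate cancer line established from a male FVB/NJ mouse. Cells were grown for 48 h with no agent (Ctrl), with IFNγ at 200 pg (IFN200) or 2000 pg (IFN2000), with oxaliplatin, a DNA-crosslinking platinum compound, at 2 μM (Oxali), or with Oxali plus IFNγ at 200 pg (Combo200) or 2000 pg (Combo2000). The labels give the IFNγ dose as a mass, and the study states it per volume of medium. Each of the 6 groups held 2 libraries, all of the same line, and nothing states that they came from separate cultures, so p-values measure only the spread between these libraries, which may be technical.

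A platinum drug enters a cell in part through carriers that evolved for other cargo. SLC31A1 is the high-affinity copper importer of the plasma membrane and also takes up platinum drugs, whereas its paralog SLC31A2 sits mainly on endosomes and lysosomes and is known to limit platinum accumulation. ATP7A and ATP7B pump copper into the secretory pathway and out of the cell, metallothioneins are small cysteine-rich proteins that bind zinc, copper and platinum, and ABC pumps such as ABCC1 and ABCC2 export drugs conjugated to glutathione. SLC47A1 is a proton exchanger that exports organic cations. Transcription of Mt1 and Mt2 is known to be driven by metals through MTF1, a zinc-sensing factor that binds metal response elements in their promoters.

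The genes that form pairs also lie near each other on the same chromosome, and genes between them were not examined. In GRCm38, Slc31a2 (chromosome 4, 62262562 to 62298411) and Slc31a1 (chromosome 4, 62360727 to 62391769) are 62315 bases apart, and Mt2 (chromosome 8, 94172664 to 94173568) and Mt1 (chromosome 8, 94179082 to 94180327) are 5513 bases apart, all 4 on the plus strand. RefSeq promoter windows, from 250 bases before to 50 bases after the annotated start, matched 7 of the 9 genes. The windows of Mt1 (chr8:94178839-94179138, plus strand) and Mt2 (chr8:94172368-94172667, plus strand), GRCm38.p6, are shown because the 2 neighbouring metallothioneins moved in opposite directions with Oxali, with each match to the metal response element core (TGCACNC or TGCGCNC, either strand) in capitals:
Mt1: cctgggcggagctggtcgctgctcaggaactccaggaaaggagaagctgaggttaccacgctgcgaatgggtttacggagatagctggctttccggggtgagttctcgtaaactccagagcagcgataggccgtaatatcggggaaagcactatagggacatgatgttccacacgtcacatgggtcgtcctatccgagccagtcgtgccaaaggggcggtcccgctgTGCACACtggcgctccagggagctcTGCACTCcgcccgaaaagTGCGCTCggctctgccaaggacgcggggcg
Mt2: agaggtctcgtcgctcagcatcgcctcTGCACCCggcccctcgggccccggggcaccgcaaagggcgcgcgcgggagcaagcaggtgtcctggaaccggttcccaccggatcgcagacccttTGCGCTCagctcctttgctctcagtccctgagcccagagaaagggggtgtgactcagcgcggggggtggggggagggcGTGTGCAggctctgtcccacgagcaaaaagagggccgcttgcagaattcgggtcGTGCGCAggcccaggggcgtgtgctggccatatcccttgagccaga
The window of Mt1 held 3 matches and that of Mt2 held 4. At least 3 were found in 1.97% and at least 4 in 0.517% of 32851 mouse promoter windows of the same length. The Mt1 matches lay at -23, 3 and 21 bases from the annotated start, and those of Mt2 at -223, -128, -50 and 5. Elements outside these windows were not counted, so the counts are not those of the whole promoters. Positions hold for the annotated start only. Mt1 has 3 protein-coding transcripts of 549 to 1085 bases, and the start used in these cells was not examined. Whether a match lies before or after that start, and which gene holds more elements, thus cannot be told from these windows. At least 1 match was present in 25.7% of all windows, and in those of Atp7a (2 matches), Slc31a2 (1) and Atp7b (1), but not in those of Slc31a1 and Abcc2. The antioxidant response element letters TGACNNNGC, found on either strand in 12.4% of windows, occurred once each in the windows of Mt2, Slc31a2 and Abcc2. This motif too was searched only in the windows, so a match of Mt1 or another gene outside its window would be missed. No antioxidant match overlapped a metal response element match in these windows.

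Titles defined the groups here, because the agent recorded for the 6 single-treatment libraries disagrees with their titles. In the 6 libraries titled Oxali or Combo, 18 p53 target genes averaged 0.46 to 0.55 above Ctrl on the log2 scale, against at most 0.07 in the others, which follows the titles. A list of 20 IFNγ response genes averaged 0.92 to 0.93 in IFN200 and 2.82 to 2.85 in IFN2000, but also 1.49 to 1.52 in the Oxali libraries, which had no IFNγ by their titles. The same list averaged 4.20 to 4.23 in Combo200 and 5.61 to 5.63 in Combo2000. Library totals ran from 18749975 to 25931516 counts, so that 3 counts correspond to 0.111 to 0.167 CPM, the usual count scaled by library size, and 13177 genes passed the filter on low counts. The prostate gene Hoxb13 (29.2 to 45.1 CPM), Krt8 and Myc were detected in every library, whereas the epithelial marker Epcam had no count and Krt18 and Cdh1 at most 6. A list of 12 T-cell genes summed to 22.2 CPM in IFN2000 replicate 2 and to 0.353 to 3.13 CPM elsewhere, and 8 heart muscle genes summed to 7.60 CPM in IFN200 replicate 1 (Actc1 2.73, Tnnt2 2.04 and Myh6 1.22 CPM) and elsewhere to 3.10 to 5.94 CPM with Oxali, mostly Tnnt2, and 0.835 to 1.27 CPM without. Where leaving out these libraries changed a call of a member, the values without them are given beside it. With Oxali, the basal list (3 genes, mostly Krt14) summed to 7.41 to 8.37 CPM against 2.61 to 4.37 without, and the liver and kidney list (8 genes, mostly Slc12a1, with Alb, Umod and Slc34a1 at 0) to 15.2 to 19.0 against 5.44 to 7.96; the part of these cells in the results was not tested. The myeloid list (6 genes, mostly Cd14 at 11.7 to 16.7 CPM) summed to 16.4 to 18.9 CPM with Oxali and to 12.5 to 15.6 without. In this list Adgre1 and Itgam had no count, whereas Cd68 had 10 to 32 counts in a library, Csf1r 0 to 19 and Lyz2 0 to 11. In bulk RNA, fewer cells of a type and less RNA per cell cannot be told apart.

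Per kilobase of the longest protein-coding transcript, the metallothioneins were the most abundant of the 9 mRNAs. Without Oxali, Mt1 averaged 228 ± 25.9 and Mt2 121 ± 20.5 CPM per kilobase (SD, n = 6 libraries of 3 groups), ahead of Slc31a1 at 22.2 ± 0.801, Abcc1 at 21.3 ± 1.04, Slc31a2 at 15.3 ± 0.951 and Atp7a at 9.32 ± 0.613. Abcc2 was low, at 0.674 ± 0.132 CPM per kilobase, and Slc47a1 and Atp7b were near 0, at 0.0379 ± 0.0168 and 0.0284 ± 0.0223. Slc31a1 and Abcc1 did not differ beyond their spread, and neither did Slc47a1 and Atp7b. With the union of exons as length, Abcc1 fell below Slc31a2 (9.58 ± 0.468 against 13.7 ± 0.851), so the order of these genes depends on the length used. Atp7b had 0 to 10 counts and Slc47a1 1 to 8 counts in a library, and neither passed the filter.

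**Figure D1:**
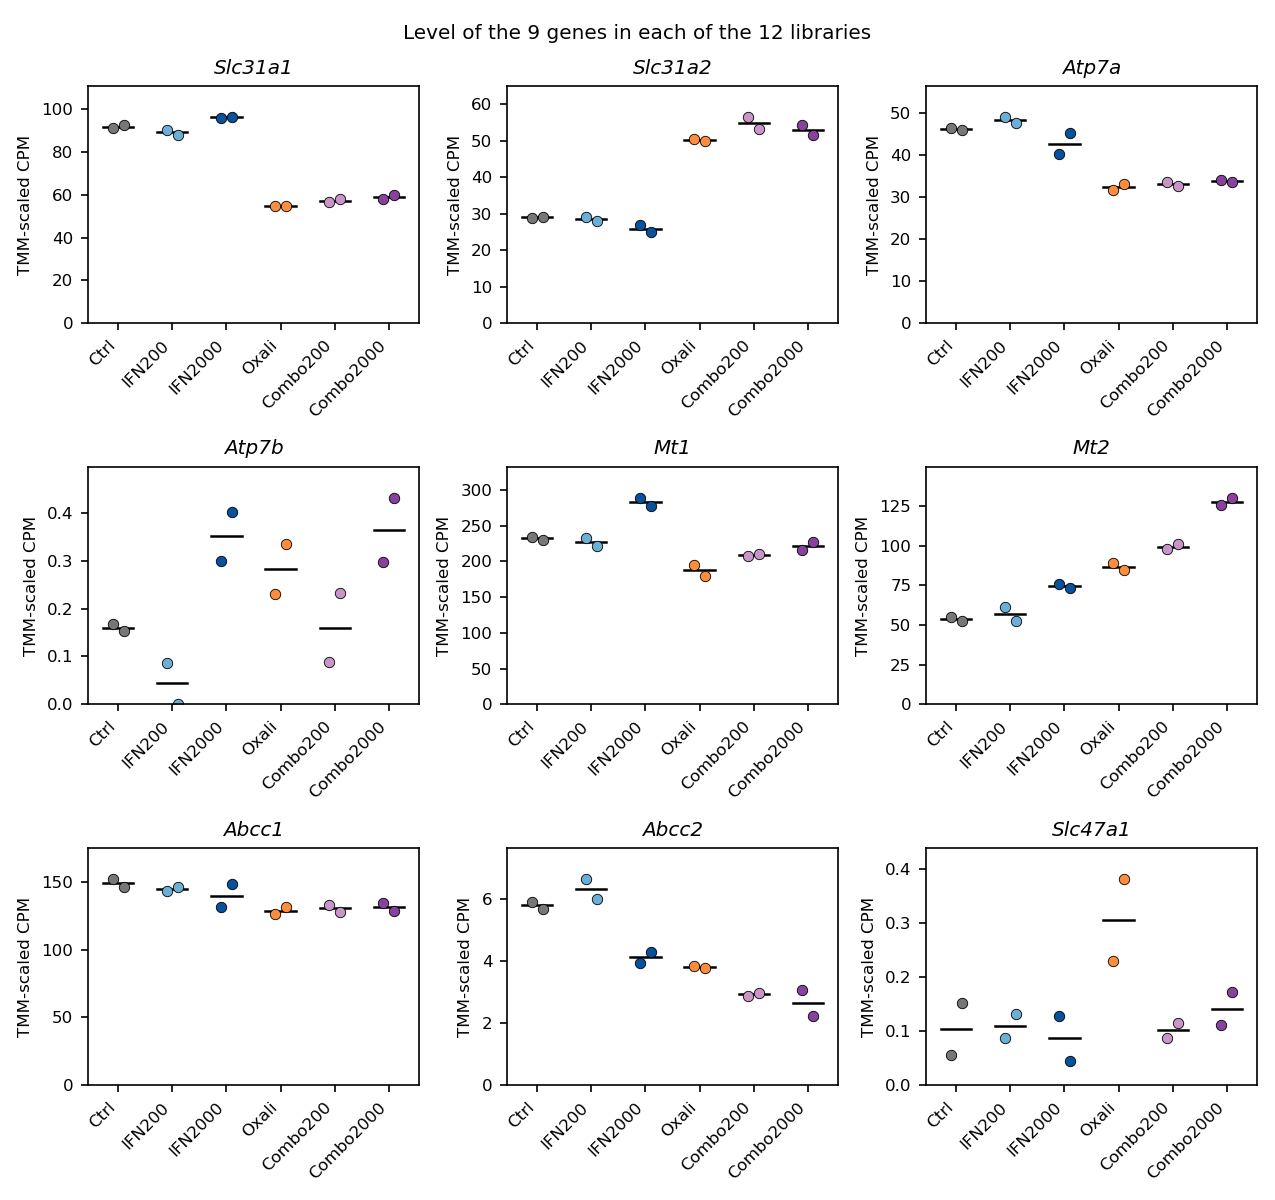
CPM, scaled by TMM factors, of each of the 9 genes in the 12 libraries (points, 2 per group; black bars are group means; every vertical axis starts at 0 and has its own range). Slc31a1, Atp7a and Abcc2 sit lower, and Slc31a2 and Mt2 higher, in all 6 libraries with Oxali than in all 6 without. The share of all genes that separate in this way was not computed. Atp7b and Slc47a1 stay under 0.5 CPM.

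The first question was what Oxali did to these genes, alone and on top of each IFNγ dose. The platinum importer Slc31a1 fell and its paralog Slc31a2 rose in all 3 Oxali comparisons (Oxali against Ctrl, Combo200 against IFN200 and Combo2000 against IFN2000), which share no library. Slc31a1 measured 91.0 and 92.6 CPM in Ctrl, 90.2 and 88.1 in IFN200, and 96.2 and 96.4 in IFN2000, against 54.8 and 55.0 with Oxali alone, 56.6 and 58.0 in Combo200, and 57.9 and 59.8 in Combo2000. All libraries with Oxali were thus below all libraries without it. The log2 fold change was -0.74 ± 0.04 (SE; adjusted p = 6.34e-12, edgeR) for Oxali against Ctrl, -0.64 ± 0.04 for Combo200 against IFN200 and -0.71 ± 0.04 for Combo2000 against IFN2000. In percent, Slc31a1 fell by 40.2%, 35.7% and 38.9%.

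Slc31a2 measured 28.9 and 29.2 CPM in Ctrl, 29.2 and 28.1 in IFN200, and 26.8 and 24.9 in IFN2000, against 50.5 and 49.9 with Oxali alone, 56.5 and 53.2 in Combo200, and 54.2 and 51.5 in Combo2000. Libraries with Oxali were all above those without. Its log2 fold change was 0.79 ± 0.06 (SE; adjusted p = 2.39e-10, edgeR) for Oxali against Ctrl, 0.94 ± 0.05 on top of 200 pg IFNγ and 1.03 ± 0.05 on top of 2000 pg, or 1.73-fold to 2.05-fold. The ratio of Slc31a2 to Slc31a1 counts within a library, which no scaling between libraries can alter, lay at 0.258 to 0.324 in the 6 libraries without Oxali and at 0.860 to 0.998 in the 6 with it. This ratio was computed after the values of both genes were seen and is given as a description.

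Of the copper-exporting ATPases, Atp7a, the widely expressed one, fell with Oxali. It measured 46.3 and 46.0 CPM in Ctrl, 49.0 and 47.5 in IFN200, and 40.2 and 45.1 in IFN2000, against 31.7 and 33.0 with Oxali alone, 33.6 and 32.6 in Combo200, and 33.9 and 33.6 in Combo2000. Libraries with and without Oxali did not overlap, and the lowest without it, IFN2000 replicate 2, was the one with T-cell transcripts. Log2 fold changes of Atp7a were -0.51 ± 0.06, -0.55 ± 0.06 and -0.34 ± 0.06 (SE) in the 3 comparisons, and the last was -0.43 without IFN2000 replicate 2. Atp7b, the form typical of liver, summed to 38 counts over the 6 libraries with Oxali and 24 over the 6 without, a ratio of rates of 1.44 (exact 95% interval 0.844 to 2.52, counting error only); log2 CPM did not differ by an exact two-sided permutation test (p = 0.255).

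Oxali moved the metallothioneins, which buffer zinc and copper, in opposite directions. Mt2 measured 55.1 and 52.6 CPM in Ctrl, 61.6 and 52.5 in IFN200, and 75.8 and 73.6 in IFN2000, against 88.8 and 84.9 with Oxali alone, 97.6 and 101.2 in Combo200, and 125.5 and 130.1 in Combo2000. All 6 libraries with Oxali were above the 6 without. Its log2 fold change was 0.69 ± 0.06, 0.80 ± 0.06 and 0.77 ± 0.05 (SE), or 1.61-fold to 1.74-fold. Mt1 measured 234.7 and 230.2 CPM in Ctrl, 232.3 and 221.9 in IFN200, and 288.8 and 277.3 in IFN2000, against 194.7 and 179.8 with Oxali alone, 207.3 and 209.6 in Combo200, and 215.7 and 227.5 in Combo2000. Libraries with and without Oxali overlapped across the groups, since Combo2000 replicate 3 stood above IFN200 replicate 2, but not within any of the 3 comparisons.

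The fall of Mt1 was small: -0.31 ± 0.04 for Oxali against Ctrl, -0.12 ± 0.04 for Combo200 against IFN200 and -0.35 ± 0.04 for Combo2000 against IFN2000 (log2, SE). The middle value had an adjusted p of 0.0176 (edgeR) and lost its call without IFN200 replicate 1 (-0.10, adjusted p = 0.124) or Combo200 replicate 2 (-0.11, adjusted p = 0.101), or without both IFN200 replicate 1 and IFN2000 replicate 2 (-0.10, adjusted p = 0.0932). It also lost it with upper-quartile scaling (-0.09, adjusted p = 0.0677), the replicate block (-0.09, adjusted p = 0.112), length and GC offsets (-0.08, adjusted p = 0.0501) or the block with these offsets (-0.06, adjusted p = 0.221). Over all alternatives the adjusted p of Mt1 in Combo200 against IFN200 ran from 0.00179 to 0.221. Within a library, the ratio of Mt2 to Mt1 counts was 0.229 to 0.265 without Oxali and 0.456 to 0.582 with it, with the highest values in Combo2000; this ratio too was computed after the values were seen. Exons of Mt2 overlap the antisense gene Gm45774 on 432 of 588 bases, and whether counting used strand is not stated; Gm45774 had 7 to 29 counts in a library where Mt2 had 991 to 3387.

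**Figure D2:**
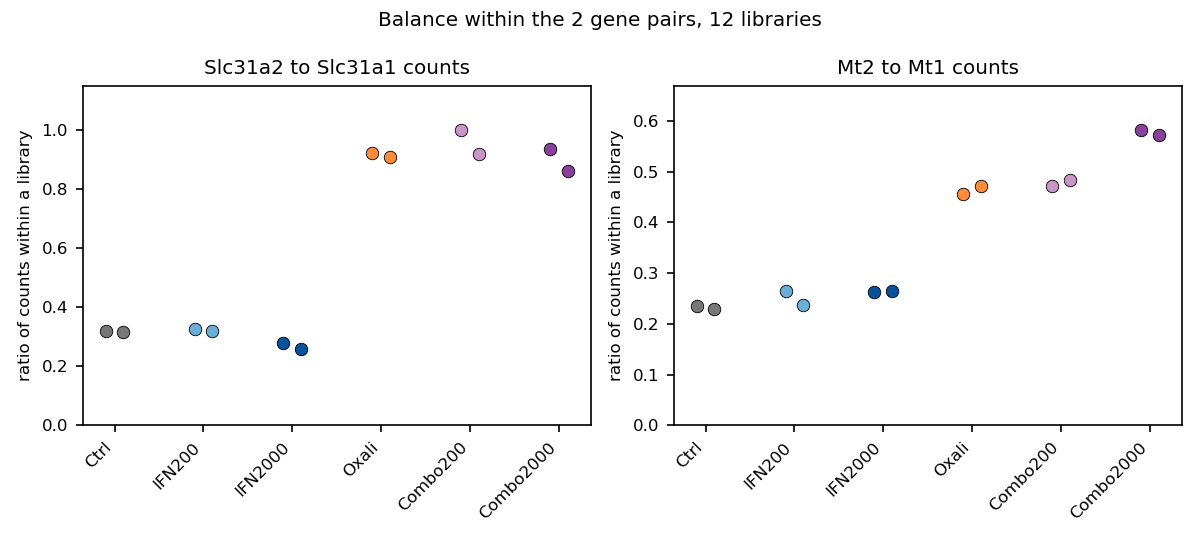
Ratio of counts within each library for Slc31a2 to Slc31a1 (left) and Mt2 to Mt1 (right), 2 points per group, vertical axes from 0. The 6 libraries with Oxali lie at 0.860 to 0.998 against 0.258 to 0.324 without (left), and at 0.456 to 0.582 against 0.229 to 0.265 (right).

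Of the efflux pumps, Abcc2 fell in all 3 Oxali comparisons and Abcc1 in 2 of them. Abcc2, a pump of the apical membrane known to export glutathione conjugates, measured 5.90 and 5.68 CPM in Ctrl, 6.64 and 6.01 in IFN200, and 3.94 and 4.29 in IFN2000, against 3.82 and 3.77 with Oxali alone, 2.88 and 2.98 in Combo200, and 3.07 and 2.24 in Combo2000. It rested on 52 to 153 counts per library, and its log2 fold change was -0.61 ± 0.15, -1.11 ± 0.15 and -0.61 ± 0.16 (SE) in the 3 comparisons. Abcc1, the ubiquitous basolateral pump of the same family, measured 131.6 to 152.3 CPM in the 6 libraries without Oxali (median 146.3) and 126.2 to 134.8 in the 6 with it (median 130.1). These ranges overlapped, and the log2 fold change was -0.21 ± 0.05, -0.15 ± 0.05 and -0.09 ± 0.05 (SE). The last did not pass the test (adjusted p = 0.131, edgeR), but was -0.18 (adjusted p = 0.00277) without IFN2000 replicate 2 and -0.30 (adjusted p = 6.21e-08) once trends with gene length and GC content were removed (adjusted p from 6.21e-08 to 0.760 over all alternatives). The second lost its call without IFN200 replicate 2 (-0.14, adjusted p = 0.0570) or Combo200 replicate 3 (-0.13, adjusted p = 0.0922), and its adjusted p went down to 4.51e-05 under the others. Slc47a1 summed to 25 counts with Oxali and 13 without, a ratio of rates of 1.75 (exact 95% interval 0.864 to 3.73, counting error only), with p = 0.0952 by an exact two-sided permutation test.

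Of the 7 genes tested, 7 passed the test for Oxali against Ctrl (2 higher, 5 lower), 7 for Combo200 against IFN200 (2 higher, 5 lower) and 6 for Combo2000 against IFN2000 (2 higher, 4 lower). Over all genes tested, 67.6% passed in the first (34.8% higher, 32.8% lower), 69.9% in the second (36.5% higher, 33.5% lower) and 72.3% in the third (38.5% higher, 33.8% lower), so a call as such was common in these libraries. Slc31a1, Slc31a2, Atp7a, Mt1, Mt2 and Abcc2 passed in the same direction in all 3 comparisons, as did 56.5% of all genes. The median absolute log2 fold change of the 7 genes was 0.61, 0.64 and 0.61, beside 0.39, 0.39 and 0.43 over all genes. The 7 genes were chosen with earlier results of these data known, so this difference is given as a description. Without IFN200 replicate 1 and IFN2000 replicate 2, the 7 genes kept their directions, and 6 passed for Combo200 against IFN200 (not Mt1) and 7 for Combo2000 against IFN2000. When the 6 libraries with Oxali were set against the 6 without in the same fit, 7 of 7 passed (2 higher, 5 lower) and so did 81.9% of all genes (42.8% higher, 39.1% lower). In that comparison Slc31a2 (0.92 ± 0.03, SE) ranked ahead of Abcc2 (-0.78 ± 0.09), Mt2 (0.76 ± 0.03), Slc31a1 (-0.70 ± 0.02), Atp7a (-0.46 ± 0.03), Mt1 (-0.26 ± 0.03) and Abcc1 (-0.15 ± 0.03) by absolute log2 fold change. A larger absolute change than that of Slc31a2 was seen for 18.0% of all genes, and a larger one than that of Abcc1 for 79.2%.

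**Figure D3:**
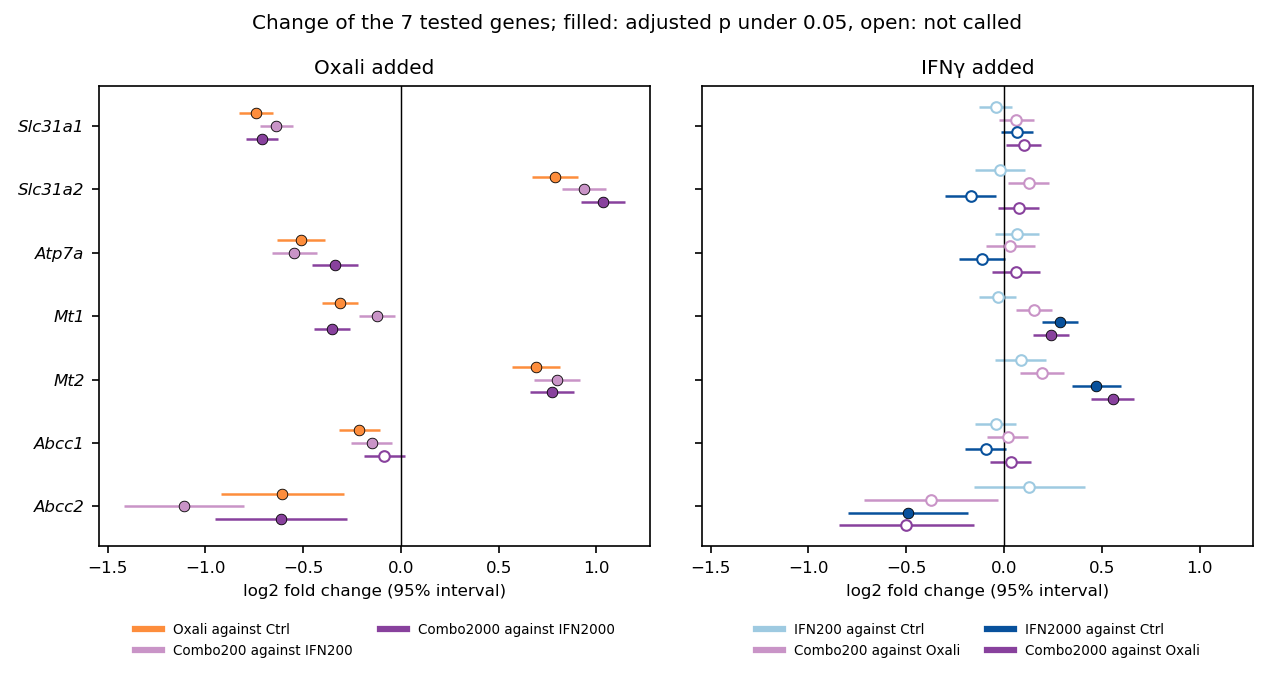
Log2 fold change (points) with its 95% interval (lines) for the 7 tested genes, for the 3 comparisons that add Oxali (left) and the 4 that add IFNγ (right); filled points passed the test at an adjusted p under 0.05, open points did not. Slc31a2 and Mt2 lie to the right of 0 in every Oxali comparison and the other genes to the left; with IFNγ, filled points are found only at 2000 pg, for Mt1, Mt2 and Abcc2.

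The second question was whether IFNγ moved these genes, in 4 comparisons that share Ctrl or Oxali libraries in pairs. At 200 pg it did so for none that could be detected: 0 of 7 passed the test for IFN200 against Ctrl (0 at an unadjusted p under 0.05 and 0 by DESeq2), where 0.114% of all genes passed, and the largest log2 change was 0.13 (95% interval -0.15 to 0.41), for Abcc2. On top of Oxali, Combo200 against Oxali gave 0 calls by edgeR (4 at an unadjusted p under 0.05, and 0 by DESeq2) beside 1.83% of all genes. Mt2 came closest, at 0.19 ± 0.05 (SE; adjusted p = 0.0854), followed by Mt1 at 0.15 ± 0.04 (adjusted p = 0.102). Mt2 was at 0.19 as well without IFN200 replicate 1 and IFN2000 replicate 2, where its call changed. Neither of these libraries belongs to Combo200 or Oxali. Over all alternatives the adjusted p of Mt2 ran from 0.00481 to 0.664.

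At 2000 pg IFNγ, both metallothioneins rose. For IFN2000 against Ctrl, Mt2 changed by 0.47 ± 0.06 (SE; 1.39-fold, adjusted p = 2.92e-05, edgeR) and Mt1 by 0.28 ± 0.04 (1.22-fold, adjusted p = 2.16e-04), whereas Abcc2 fell by 0.49 on the log2 scale (SE 0.15, adjusted p = 0.0255). These 3 of 7 calls compare with 16.9% of all genes. The log2 ratios of the IFN2000 libraries to Ctrl fell with gene length across genes (Spearman's rho -0.49 in replicate 2 and -0.27 in replicate 3), and the metallothionein transcripts are short. With that trend and the one with GC content removed, Mt2 was at 0.37, Mt1 at 0.20 and Abcc2 at -0.43, each still past the test, and Slc31a2 passed too at -0.24 (-0.17, adjusted p = 0.0667, before). Without IFN2000 replicate 2, Mt2 was at 0.46 and Mt1 at 0.26, both past the test, and Abcc2 at -0.43 was not (adjusted p = 0.179; 0.0125 to 0.213 over all alternatives).

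On top of Oxali, 2000 pg IFNγ raised Mt2 and Mt1. For Combo2000 against Oxali, Mt2 changed by 0.56 ± 0.05 (SE; 1.47-fold, adjusted p = 3.08e-07, edgeR) and Mt1 by 0.24 ± 0.04 (1.18-fold, adjusted p = 0.00152), 2 of 7 beside 4.36% of all genes. The call of Mt1 was lost without Oxali replicate 2 (0.19, adjusted p = 0.0677), the highest adjusted p of its alternatives. Abcc2 was at -0.50 ± 0.17 and did not pass (adjusted p = 0.114). Slc31a1, Slc31a2, Atp7a and Abcc1 were at 0.10, 0.07, 0.06 and 0.03 on the log2 scale, and none passed.

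The combinations were also set against Ctrl, with the same Ctrl libraries as above. For Combo200 against Ctrl, 7 of 7 genes passed (68.7% of all genes), and for Combo2000 against Ctrl 6 of 7 did (69.2% of all genes). Mt2 was 2.37-fold higher in Combo2000 than in Ctrl (log2 1.25 ± 0.06, SE), the widest gap of any member in either comparison. Mt1, lower with Oxali and higher with IFNγ, was at -0.07 ± 0.04 in Combo2000 and did not pass (adjusted p = 0.171), with a 95% interval of -0.16 to 0.02. Abcc2 was at -0.98 ± 0.15 in Combo200 and -1.11 ± 0.16 in Combo2000.

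Whether IFNγ acted differently in the presence of Oxali was tested as an interaction. None of the 7 genes passed at 200 pg (0 calls, 2 at an unadjusted p under 0.05, 0 by DESeq2; 0.698% of all genes) or at 2000 pg (0 calls, 2 at an unadjusted p under 0.05, 0 by DESeq2; 2.72% of all genes). Of the interactions over all genes at 2000 pg, 78.0% of calls were positive, or 59.0% with upper-quartile scaling. For Mt2 the interaction was 0.11 (95% interval -0.06 to 0.28) at 200 pg and 0.08 (-0.08 to 0.25) at 2000 pg, so a deviation from additivity on the log2 scale was not detectable within these limits. The largest in size with an unadjusted p under 0.05 was that of Abcc2 at 200 pg (-0.50 ± 0.21, SE; adjusted p = 0.426), and Slc31a2 at 2000 pg was at 0.24 ± 0.08 (adjusted p = 0.108).

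The other genes of these pathways were described from 4 lists: copper handling, zinc and metal response, uptake of cations and anions, and ABC efflux. Their counts are given for the 6 libraries with Oxali against the 6 without, where 42.8% of all genes were higher and 39.1% lower. Of 18 tested copper genes, 4 were higher and 10 lower (median log2 fold change -0.12, beside 0.02 over all genes). By comparison, the copper list had 4 higher and 11 lower for Oxali against Ctrl, 6 and 7 for Combo200 against IFN200 (median -0.03) and 5 and 8 for Combo2000 against IFN2000, or 5 and 7 and then 5 and 10 in the last pair without IFN200 replicate 1 and IFN2000 replicate 2. App, the amyloid precursor with a copper-binding domain, rose from 643 ± 16.8 to 1477 ± 60.0 CPM (SD, n = 6 each), and the metalloreductase Steap4 from 21.9 ± 2.74 to 48.1 ± 1.02. Commd1, which takes part in copper export, fell from 30.0 ± 2.33 to 18.3 ± 1.24 CPM. The copper chaperone Atox1, which passes copper to ATP7A and ATP7B, was lower in Oxali than in Ctrl (-0.29 ± 0.05, log2, SE) and in Combo2000 than in IFN2000 (-0.24 ± 0.05), and was at 0.02 ± 0.05 for Combo200 against IFN200, which did not pass (adjusted p = 0.747, edgeR).

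Of 15 tested zinc and metal response genes, 7 were higher and 8 lower (median -0.22), beside 42.8% higher and 39.1% lower over all genes. The 3 that changed most were all zinc importers of the SLC39 family and all fell: Slc39a10 from 60.5 ± 1.91 to 28.5 ± 1.67 CPM, Slc39a7 from 20.3 ± 0.684 to 10.3 ± 0.504, and Slc39a3 from 15.6 ± 0.613 to 7.99 ± 0.997 (SD, n = 6 each). Other SLC39 genes rose, among them Slc39a13 by 0.72 (SE 0.03), Slc39a6 by 0.23 (SE 0.02) and Slc39a11 by 0.17 (SE 0.03) on the log2 scale, named after their values were seen. Mtf1, which encodes the factor that binds the metal response elements, fell by 0.31 on the log2 scale (SE 0.04), whereas its known target Slc30a1, the zinc exporter of the plasma membrane, rose by 0.41 (SE 0.05). Mtf1 and Slc30a1 were singled out after their values were seen. The other metallothionein genes, Mt3 and Mt4, did not pass the filter on low counts.

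Of 7 tested uptake genes, 5 were higher and 1 lower (median 0.36), beside 42.8% higher and 39.1% lower over all genes. The organic cation and carnitine transporters Slc22a4 and Slc22a5 were at 1.04 ± 0.13 and 0.37 ± 0.05, and Lrrc8e, a subunit of the volume-regulated anion channel, at 0.98 ± 0.15 (log2, SE). Slc22a2, an organic cation transporter known to carry oxaliplatin, and its relative Slc22a3 did not pass the filter. Of 8 tested ABC genes, 7 were higher and 1 lower, but Abcc8 and Abcc9 passed the filter only through the libraries with Oxali, and the other 6 split into 5 higher and 1 lower. Abcc8, a subunit of the potassium channel of pancreatic beta cells, had 0 to 2 counts in libraries without Oxali and 15 to 25 with it, at least 6.15-fold higher against a floor of 3 counts per library. Abcc3, a basolateral pump for glucuronides, was at 1.03 ± 0.14, and Abcb1a, a P-glycoprotein gene, rose from 49.7 ± 3.86 to 79.0 ± 4.01 CPM (SD, n = 6 each).

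**Figure D4:**
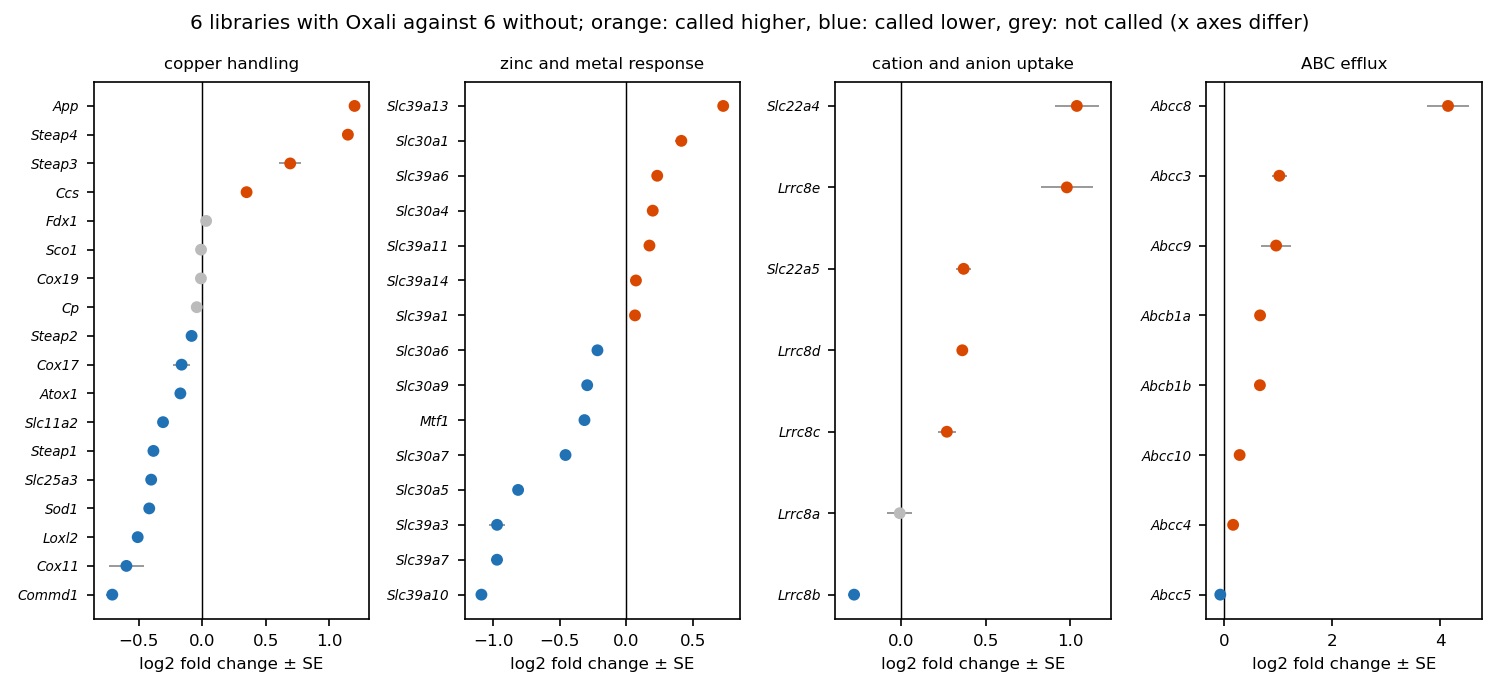
Log2 fold change (points, ± SE) of every tested gene of the 4 lists, 6 libraries with Oxali against 6 without; orange and blue points passed the test, grey did not, and each panel has its own horizontal axis. Of the copper genes 10 are lower and 4 higher, beside 39.1% lower and 42.8% higher over all genes. Of the ABC genes 1 is lower and 7 higher, but Abcc8 and Abcc9 passed the filter on low counts only through the libraries with Oxali. The other 6 ABC genes split into 5 higher and 1 lower.

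Of 9118 genes averaging 3 log2 CPM or more, those whose profile over the 12 libraries was most like a member's were named by Pearson's r, as a description, since the points share their libraries and mostly separate by Oxali. Slc31a1 was most like Rpl7a (r = 0.999) and G6pdx (0.998), and Slc31a2 most like Ehd4 (0.997) and Vsig10 (0.997). Mt2, which also follows IFNγ, was most like Atf3 (0.985), a stress-induced transcription factor gene, and Insl6 (0.980). Mt1 was most like Asna1 (0.978) and P4ha1 (0.968), Atp7a like Ankrd17 (0.994) and Kdm7a (0.993), Abcc1 like Sfmbt2 (0.962) and Itpr3 (0.957), and Abcc2 like Klf9 (0.982) and Dnmt3a (0.980). Among the members themselves, Slc31a1 and Slc31a2 were the most strongly opposed pair (r = -0.985), and Mt1 and Mt2 were weakly related (r = -0.287).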

How the data were processed

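The deposited table holds whole-number counts per gene for 12 libraries, made by the authors. Per the study's methods, reads were aligned to GRCm38 with STAR 2.7.3a and counted with featureCounts. The submitters' processing notes also name RSEM 1.3.0, and whether counting used strand is not stated. Of 55216 genes, 28300 had no count. No sample column was left unused.

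Counts were tested with edgeR 4.0.16 (R 4.3.3; TMM factors, filterByExpr with a minimum count of 10 and a total of 15, quasi-likelihood test), with all 12 libraries and 6 groups in one model (6 residual degrees of freedom) and 12 contrasts. Calls were made at an adjusted p under 0.05 (Benjamini-Hochberg, over 13177 genes). The study's tool, DESeq2 (1.42.0 here), was an alternative, as were other scalings, filters, a replicate block, length and GC offsets (98.98% of tested genes had both) and leaving out each library. An exact permutation test on 2 against 2 libraries cannot go below p = 0.333; the 6 against 6 test was used for the genes that failed the filter. In simulated data for Oxali against Ctrl, 83% of genes changed by 0.5 and 95% of those changed by 1 (log2) were recovered among 12963 genes. The simulation gave every gene and group the same spread beyond counting noise and changed only a small part of the genes. These shares are thus not those that the real comparison would recover. Replicates differed by more than counting noise in every group, from a chi-square per degree of freedom of 1.68 in Combo200 to 8.63 in Oxali.

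The members and lists were chosen with earlier results of these data known. Besides the members, the text names up to 3 genes of each list called in one direction in all 3 Oxali comparisons, by size of change, and the 2 genes most like each tested member; others are named where they were flagged or are said to be chosen later. Gene positions are GENCODE vM21, in which 53559 symbols matched; promoters are from RefSeq, GRCm38.p6. Some genes of the lists are not reported here by name.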

Additional observations from a re-analysis of the deposited data

Results flagged for a closer look

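The effect of IFNγ differed with and without Oxali, by the interaction term of the edgeR fit, for 6 genes of the pathway lists and for none of the 7 members tested. At 200 pg this was Atox1, the copper chaperone (0.31 ± 0.07, log2, SE; adjusted p = 0.0329). At 2000 pg these were Cp, the copper-carrying ferroxidase ceruloplasmin (0.32, adjusted p = 0.00192), the metalloreductases Steap2 (0.22, adjusted p = 0.0298) and Steap4 (0.41, adjusted p = 0.00717), and the pumps Abcb1a (0.33, adjusted p = 0.0136) and Abcc5 (0.31, adjusted p = 0.0124). Steap4 was at -0.37 for IFN2000 against Ctrl and at 0.04 for Combo2000 against Oxali, and Abcb1a at -0.20 and 0.13. These comparisons rest in part on the IFN2000 libraries, in which log2 ratios fell with gene length and 1 of which held T-cell transcripts. Without IFN200 replicate 1 and IFN2000 replicate 2, a choice made after seeing the data, Cp (0.33, adjusted p = 0.00308) and Steap4 (0.43, adjusted p = 0.0184) still passed. Atox1 at 200 pg (0.26, adjusted p = 0.0900), Steap2 (0.17, adjusted p = 0.182), Abcb1a (0.27, adjusted p = 0.0936) and Abcc5 (0.24, adjusted p = 0.0682) then lost their calls.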

How the results depend on the processing

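Over all alternatives, 1804 of 1841 values of the 84 log2 fold changes of members kept their direction and their side of the threshold, 19 lost a call, 18 gained one, none that was called changed sign, and 20 that were not called did. The changes of Slc31a1, Slc31a2, Atp7a, Mt2 and Abcc2 in the 3 Oxali comparisons kept their calls under every alternative run. Leaving out 1 library in turn gave 2 to 5 members called for IFN2000 against Ctrl (5 without IFN2000 replicate 3, where Atp7a and Abcc1 passed too), 0 to 1 for Combo200 against Oxali (1 without IFN200 replicate 1, IFN200 replicate 2 or Oxali replicate 1) and 1 to 2 for Combo2000 against Oxali (1 without Oxali replicate 2). Combo200 against Oxali gave 2 calls with no filter on low counts and 1 with only the groups compared, with the replicate block, or without IFN200 replicate 1 and IFN2000 replicate 2, a choice made after seeing the data. At 2000 pg the interaction gave 1 call (Slc31a2, 0.27, adjusted p = 0.0327, the lowest of 22 alternatives) with the replicate block and length and GC offsets. Abcc2 for IFN2000 against Ctrl lost its call with DESeq2 (adjusted p = 0.131), with the block (0.143), or without Ctrl replicate 1 (0.152), Ctrl replicate 2 (0.0939) or IFN2000 replicate 2 (0.179). The causes were not tested. Replicate numbers did not clearly pair the libraries (7 of 21 same-numbered pairs had a correlation over 0.1, range -0.38 to 0.14). Groups that share both replicate numbers give the same value for each number, so these 21 pairs are not independent. Over all genes the block moved the calls for IFN2000 against Ctrl from 2221 to 1071 and for Combo200 against Oxali from 241 to 142. It also moved those for Combo2000 against Oxali from 574 to 331 and for the interaction at 200 pg from 92 to 48. With no filter, calls were 102 against 15 for IFN200 against Ctrl, 372 against 241 for Combo200 against Oxali, and 262 against 92 and 785 against 359 for the interactions. With only the groups compared they were 48 for IFN200 against Ctrl and 172 for the interaction at 200 pg. DESeq2 gave 373 for Combo2000 against Oxali and 218 for the interaction at 2000 pg, and length and GC offsets gave 26 for IFN200 against Ctrl. With 1 library left out, calls over all genes ran from 4 to 25 for IFN200 against Ctrl, 646 to 2964 for IFN2000 against Ctrl, 123 to 284 for Combo200 against Oxali, 337 to 713 for Combo2000 against Oxali, and 33 to 139 and 102 to 1035 for the interactions. Counts for all 3 Oxali comparisons stayed within 1.5 times the main ones.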
